A study of Mus musculus with 4 samples.

Results

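The 94 genes described here encode chromatin modifiers and remodelers. They were taken by their symbols: histone lysine demethylases (Kdm), deacetylases (Hdac) and sirtuins (Sirt), the Sin3 scaffolds, lysine acetyltransferases (Kat), bromodomain proteins (Brd), the CHD and SMARC remodelers, lysine methyltransferases (Setd, Mll and Ezh), arginine methyltransferases (Prmt), and the enzymes that add or oxidize DNA methylation (Dnmt and Tet). These are 94 of the 19718 genes that carried a symbol of their own on the array, with 117 of 22553 probes, and each gene was read by its brightest probe. No measured value of the comparison entered the choice of genes, although the families were picked with earlier results of these data known. The choice of probe did use the measured intensities of the compared arrays, so it can favour a probe that is high in either group.

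MA-10 is a clonal Leydig tumor cell line of the mouse, so 1 clone stands for the tumor cells, and cordycepin is an analog of adenosine that lacks a hydroxyl group on the sugar. Total RNA of MA-10 cells treated with 100 μM cordycepin for 3 hours was read on 2 one-colour arrays, and that of vehicle control cells at 3 hours on 2 others. The labels name the vehicle PBS and the methods name it DMSO, and a protocol field of the labels gives the drug in another concentration unit, and neither point could be settled from the sources. Nothing in the labels says that the 2 arrays of a group came from separate cultures, and the p-values below then measure only the spread between arrays, which may be technical.

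DNA is wound around histones, and enzymes that add, remove or read acetyl and methyl groups on histone tails set how open a stretch of chromatin is. Acetyltransferases open it and deacetylases close it, bromodomain proteins bind acetylated histones, and lysine methyltransferases and demethylases write and erase marks of active or silent genes. The remodelers of the CHD, SWI/SNF and ISWI families use ATP to slide or evict nucleosomes. DNA methyltransferases silence promoters, and Tet enzymes begin the removal of that methylation. In Leydig cells such enzymes act with nuclear receptors at the genes of steroid synthesis.

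The promoters of 4 members are shown as examples that do not stand for the set, a deacetylase and a methyltransferase that were lower with cordycepin (Sirt1 and Setd2) and one of each that were not called (Hdac2 and Ezh2). Each had 1 start in the RefSeq table of build GRCm38.p6, and each line runs 5′ to 3′ on the strand of the gene, with 250 bases before and 50 after the start. Capitals mark GC boxes, read as GGGCGG on either strand, and boxes that overlap were each counted. The windows lie at chr10:63338986-63339285, minus strand (Sirt1), chr10:36974294-36974593, plus strand (Hdac2), chr9:110532347-110532646, plus strand (Setd2), and chr6:47594981-47595280, minus strand (Ezh2).
Sirt1: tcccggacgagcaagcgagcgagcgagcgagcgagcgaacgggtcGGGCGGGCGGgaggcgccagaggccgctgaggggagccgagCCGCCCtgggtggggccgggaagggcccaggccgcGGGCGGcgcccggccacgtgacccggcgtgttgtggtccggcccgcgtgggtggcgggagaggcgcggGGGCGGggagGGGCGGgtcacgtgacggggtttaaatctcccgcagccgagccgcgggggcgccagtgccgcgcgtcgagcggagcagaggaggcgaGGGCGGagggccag
Hdac2: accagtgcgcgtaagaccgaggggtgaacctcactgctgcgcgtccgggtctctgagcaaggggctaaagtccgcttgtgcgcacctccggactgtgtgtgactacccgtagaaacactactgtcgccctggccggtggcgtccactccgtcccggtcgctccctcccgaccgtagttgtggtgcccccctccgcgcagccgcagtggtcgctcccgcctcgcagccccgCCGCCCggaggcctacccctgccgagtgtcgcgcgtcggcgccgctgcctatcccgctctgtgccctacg
Setd2: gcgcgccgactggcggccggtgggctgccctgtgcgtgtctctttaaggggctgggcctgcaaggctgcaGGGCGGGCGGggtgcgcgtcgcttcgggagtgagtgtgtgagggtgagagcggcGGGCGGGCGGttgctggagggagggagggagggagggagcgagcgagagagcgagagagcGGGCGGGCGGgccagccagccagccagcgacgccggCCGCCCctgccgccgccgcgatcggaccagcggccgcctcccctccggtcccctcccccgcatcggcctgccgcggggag
Ezh2: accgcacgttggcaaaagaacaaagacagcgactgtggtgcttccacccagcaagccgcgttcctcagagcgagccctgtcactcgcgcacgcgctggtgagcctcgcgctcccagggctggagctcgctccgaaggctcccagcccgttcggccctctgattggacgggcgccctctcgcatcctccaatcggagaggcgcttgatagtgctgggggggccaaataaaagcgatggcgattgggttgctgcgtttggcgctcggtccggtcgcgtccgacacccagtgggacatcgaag

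Sirt1 and Setd2 held 7 boxes each, Hdac2 held 1 and Ezh2 held 0, with a GC content of 79.0% in Sirt1, 77.3% in Setd2, 69.7% in Hdac2 and 64.3% in Ezh2. Over the whole set this difference between the 4 windows was not seen in the share of promoters with a box. A GC box lay in 68.3% of 41 promoters of 29 lower members, against 67.8% of 59 promoters of 42 members that were detected and not called, and in 52.3% of the promoters of all genes tested and 35.7% of all promoters in the table. The median GC content was 65.3% for the lower members and 61.3% for the detected members not called. The sequence TATAAA, on either strand, was found in 1 of the 41 promoters of lower members and in 3 of the 59 others, beside 10.0% of the promoters of all genes tested and 13.6% of all promoters in the table. These are matches of letters and were given no test.

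Of the 94 genes, 91 had a value above 0 on all 4 arrays in the probe used and were tested with limma. With cordycepin, 36 were lower and 0 were higher at a Benjamini-Hochberg adjusted p under 0.05, 55 were not called, and Chd7, Prmt7 and Setd7 were not tested. The 36 lower genes are 39.6% of the members tested. Over all 18474 genes tested, 14.7% were lower and 0.942% were higher, so the background of lower calls was itself large. At an unadjusted p under 0.05 limma gave 38 members lower and 0 higher, and the methods' t-test 31 lower and 0 higher, of which 0 remained after adjustment. The share of all genes at this unadjusted threshold is not given here, so these counts cannot be read against a background.

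The median log2 ratio of cordycepin over control was -0.59 for the members and -0.13 for all genes. Members detected in both groups ran from -3.36 (Setd5) to 0.79 (Brd8), and Sirt1, detected in control alone, has only a bound. The authors' detection p was under 0.05 on both arrays of a group for 81 members. Among these, 35 were lower (43.2%), against 22.1% of the 11283 genes detected in this way (0.505% higher), and the medians were -0.64 and -0.31. A gene can pass this filter through the group where it is high, as Sirt1 and Kdm6b did through control alone. These shares are therefore a description and no separate check of the fall. On all 4 arrays 76 members were detected. In 54 members both cordycepin arrays lay below both control arrays, against a share of 35.5% of all genes (52 of the 81 detected members, against 49.3% of detected genes), and in 1 member, Brd8, they lay above, against 8.63% of all genes. In total RNA of a culture, fewer cells with a transcript and less transcript per cell cannot be told apart.

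The spread and the scaling of the arrays touch all of these values. Every log2 ratio had the same standard error of 0.407, because limma pooled the variance over all probes, and the smallest fall that was called was 1.10 on the log2 scale, so a smaller fall could not be called. The deposited scaling left control array 1 above control array 2 by a median log2 of 0.50 over all probes and 0.49 over the probes of the members, whereas the cordycepin arrays were 0.03 apart over all probes. This gap lies within the control group, and with arrays centred on their medians, which removes it, all 36 lower members kept their call among 41 lower. Of the markers of Leydig cells, Hsd3b1, Scarb1, Fdx1 and Nr5a1 were detected on all arrays, while the probe of Cyp11a1, the enzyme that starts steroid synthesis, was at 0 on all 4. The summed Leydig list ran from 26303 to 27348 on the cordycepin arrays and from 31489 to 44124 on the control arrays. Of the Sertoli list, Amh and Wt1 were detected on no array, but Rhox5, Amhr2, Inha and Cst12 were detected on all 4, and its sum ran from 40082 to 51921 with cordycepin and from 39658 to 53191 in control. Of the germ cell list, 9 of 11 genes on the array were detected on no array, and the macrophage, endothelial and peritubular myoid lists had 4 such genes each, of 8, 6 and 5.

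**Figure D1:**
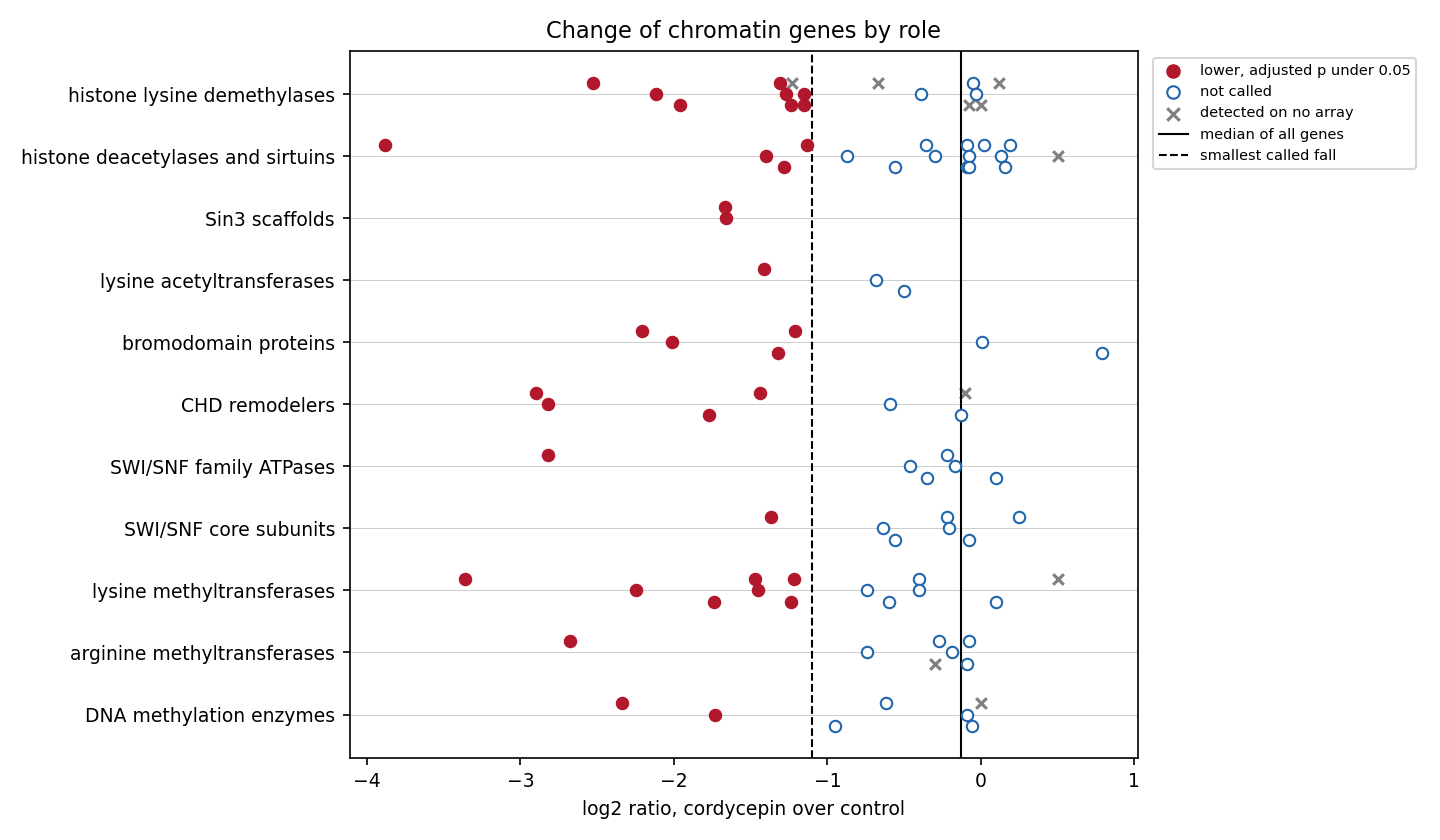
Log2 ratio of cordycepin over control (x axis) for the 91 members tested, 1 point per gene, in rows by role. Filled points were lower at an adjusted p under 0.05, open points were not called, crosses were detected on no array (Kdm5a, the leftmost, was called lower), the solid line is the median of all genes (-0.13) and the dashed line the smallest fall called (-1.10), and the leftmost point, Sirt1, was not detected with cordycepin and is drawn at its measured values. Lower genes fill much of the rows of demethylases, bromodomain proteins, CHD remodelers and lysine methyltransferases, while the SWI/SNF and arginine methyltransferase rows hold 1 each.

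Counts by role are read against the 14.7% of all genes that were lower. Of the enzymes that erase or write histone lysine methylation, 9 of 16 demethylases (median log2 ratio -1.15) and 7 of 13 methyltransferases (-1.22) were lower. Of the CHD remodelers 4 of 7 were lower (-1.44), of the bromodomain proteins 4 of 6 (-1.27), and both Sin3 scaffolds were. Nearer to that background, 4 of 17 deacetylases and sirtuins (-0.09), 1 of 7 arginine methyltransferases (-0.27), 1 of 6 SWI/SNF family ATPases (-0.28) and 1 of 7 SWI/SNF core subunits (-0.22) were lower. Of the acetyltransferases 1 of 3 (-0.68) and of the DNA methylation enzymes 2 of 7 (-0.62) were lower. The differences between roles were not tested.

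Among the lysine methyltransferases, the largest fall was that of Setd5, a nuclear SET domain protein. Its normalized intensity was 83.3 and 89.1 on the cordycepin arrays, against 1023 and 760 on the control arrays, a log2 ratio of -3.36 (adjusted p = 1.7e-14). Both cordycepin arrays stood at about the same low level and far under both control arrays. Mll1 (now Kmt2a), which methylates histone H3 at active promoters and is rearranged in leukemia, read 70.0 and 70.9 with cordycepin, against 426 and 264 in control (-2.25, adjusted p = 7.8e-07), and was detected on 1 cordycepin array. Setd2, which marks the bodies of transcribed genes, read 270 and 258 with cordycepin, against 1089 and 714 in control (-1.74, adjusted p = 0.00027). Both groups were separate for each of these 3 genes. The related enzymes Mll3 (now Kmt2c, -1.47), Setd1a, a catalytic subunit of COMPASS (-1.45), Setd4 (-1.24) and Mll2 (now Kmt2d, -1.22) were lower as well, with adjusted p-values between 0.0032 and 0.022.

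The polycomb methyltransferases, which write the mark of silenced developmental genes, were not called. Ezh2 read 1221 and 1203 with cordycepin, against 2276 and 1474 in control, and its log2 ratio of -0.60 had an adjusted p of 0.51. Its paralog Ezh1 had a ratio of -0.74 (adjusted p = 0.29). In both genes the cordycepin arrays lay below the control arrays. Setd8 (now Kmt5a), which methylates histone H4 in dividing cells, had -0.40, Setd6 had -0.40, and Setd3, which methylates actin, had 0.10. Mll5 (now Kmt2e) was detected on no array.

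Of the lysine demethylases, Kdm6a, which erases the polycomb mark and is encoded on the X chromosome, fell most. Kdm6a read 74.4 and 59.1 on the cordycepin arrays, against 500 and 293 on the control arrays (-2.53, adjusted p = 1.7e-08). Kdm3a, which removes methyl groups of silent chromatin and is known from spermatid maturation in the mouse, read 162 and 145 with cordycepin, against 778 and 573 in control (-2.12, adjusted p = 3.9e-06). Kdm2a, which binds unmethylated CpG islands, read 72.2 and 74.5 with cordycepin, against 345 and 238 in control (-1.96, adjusted p = 2.5e-05). The 3 genes separated the groups, and the cordycepin arrays of each lay closer together than its control arrays did. The other calls were smaller: Kdm4c (-1.31), Kdm4b (-1.27), Kdm4a (-1.24) and Kdm2b (-1.15).

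Kdm6b, the inducible paralog of Kdm6a, was detected on no cordycepin array, at 18.9 and 18.2, and on both control arrays, at 50.4 and 33.7. It was at least 1.82-fold lower with each cordycepin array floored at its dimmest detected probe (adjusted p = 0.034). Kdm5a was called lower too (adjusted p = 0.020), but it was detected on no array, and no fold is given. The flavin-dependent demethylase Kdm1a, which erases methylation in the CoREST corepressor, read 2194 and 1883 with cordycepin, against 2765 and 1547 in control (-0.03, adjusted p = 1), so the groups overlapped. Kdm1b (-0.39) and Kdm5c (-0.05) were not called, and Kdm3b, Kdm4d, Kdm5b and Kdm5d were detected on no array.

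**Figure D2:**
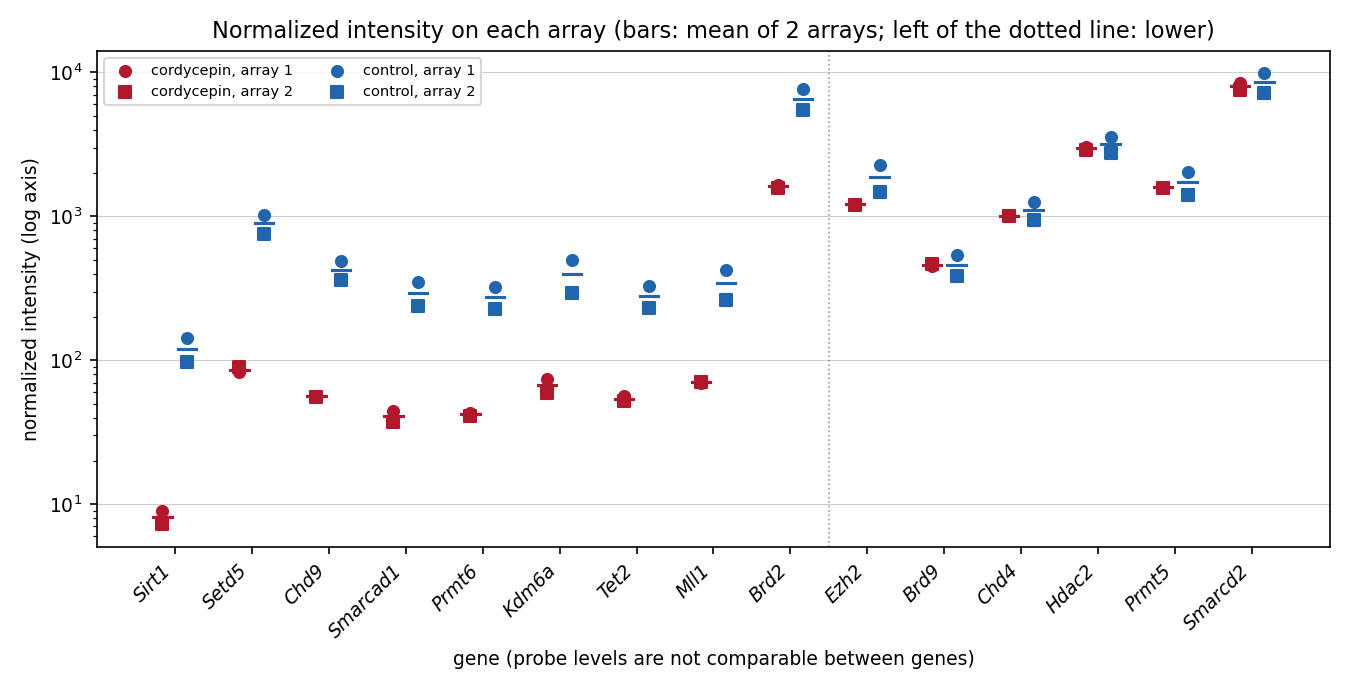
Normalized intensity (y axis, log scale) of 15 members on each of the 4 arrays, cordycepin in red left of control in blue, with a bar at the mean of each group. Left of the dotted line are 9 members that were lower, and in each of them both cordycepin arrays lie below both control arrays. Right of it are 6 that were not called, of which 5 overlap between the groups and Ezh2 does not.

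Most deacetylases were not called, and the lower ones came from several classes. Sirt1, an NAD-dependent deacetylase of the nucleus, had the lowest adjusted p of all members. It was detected on neither cordycepin array, at 8.89 and 7.27, and on both control arrays, at 143 and 97.7, so that it was at least 5.23-fold lower (adjusted p = 3.7e-19). Sirt7, a sirtuin of the nucleolus, read 849 and 808 with cordycepin, against 2259 and 1802 in control (-1.28, adjusted p = 0.014). These 2 nuclear sirtuins were lower. The mostly cytoplasmic Sirt2 (0.13) and the mitochondrial Sirt3 (-0.09), Sirt4 (-0.87) and Sirt5 (-0.09) were not called, nor was the nuclear Sirt6 (-0.56).

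Hdac4, a class IIa deacetylase that shuttles between nucleus and cytoplasm, read 384 and 338 with cordycepin, against 1115 and 811 in control (-1.40, adjusted p = 0.0059). Its paralog Hdac5 read 591 and 555 with cordycepin, against 758 and 484 in control (-0.08, adjusted p = 1). The groups were separate for Hdac4 and overlapped for Hdac5. Hdac10, a class IIb enzyme that acts on polyamines, was just past the threshold (-1.13, adjusted p = 0.041), and Hdac6, the tubulin deacetylase of the same class, was not called (0.16). The class I enzymes Hdac2 (-0.08), Hdac3 (0.02) and Hdac8 (-0.36) were not called, nor were Hdac7 (-0.30) and Hdac11 (0.19), and Hdac9 was detected on no array. The scaffolds that tether class I enzymes to repressed genes were lower: Sin3a read 377 and 372 with cordycepin, against 1358 and 1048 in control (-1.67, adjusted p = 0.00052), and Sin3b 182 and 175, against 663 and 478 (-1.66, adjusted p = 0.00059). Sin3a was detected on 1 of the cordycepin arrays.

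Brd2 and Brd3, proteins of the BET family that bind acetylated histones, were lower. Brd2 read 1659 and 1579 with cordycepin, against 7688 and 5499 in control (-2.01, adjusted p = 1.6e-05). Brd3 read 248 and 244 with cordycepin, against 772 and 485 in control (-1.32, adjusted p = 0.011). In both genes the cordycepin arrays lay below the control arrays. Brd1, a scaffold of histone acetyltransferase complexes, fell more: it read 353 and 345 with cordycepin, against 1941 and 1349 in control (-2.21, adjusted p = 1.3e-06). Brd9, a subunit of a SWI/SNF variant, read 451 and 469 with cordycepin, against 537 and 387 in control (0.01, adjusted p = 1). Brd8, a subunit of the acetyltransferase complex of Kat5, read 55.6 and 50.9 with cordycepin, against 35.5 and 26.6 in control. Its ratio of 0.79 was not called (adjusted p = 0.24), although its groups did not overlap.

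Kat5 itself, which acetylates histones and DNA damage proteins, read 169 and 176 with cordycepin, against 547 and 387 in control (-1.41, adjusted p = 0.0051). The acetyltransferases Kat2a (-0.68, adjusted p = 0.37) and Kat2b (-0.50, adjusted p = 0.60), which share a place in the SAGA complex and its relatives, were not called.

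Among the CHD remodelers, Chd9, Chd1, Chd6 and Chd8 were lower. Chd9 read 56.7 and 55.5 with cordycepin, against 489 and 359 in control (-2.90, adjusted p = 5.4e-11). Chd1, which travels with RNA polymerase over transcribed genes, read 25.6 and 23.6 with cordycepin, against 205 and 147 in control (-2.82, adjusted p = 2e-10). Both cordycepin values of Chd1 were close to the lowest detected intensities of those arrays, 24.4 and 20.9. Chd6 (-1.77) and Chd8 (-1.44), the protein mutated in some cases of human autism, fell less. Chd4, the ATPase of the NuRD corepressor, read 999 and 1005 with cordycepin, against 1268 and 944 in control (-0.13, adjusted p = 1), and its groups overlapped. Chd5 and Chd7 were detected on no array.

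Most of the SWI/SNF and ISWI proteins were not called. The ATPases Smarca4 (-0.46) and Smarca2 (-0.22), which drive SWI/SNF, and Smarca5 (-0.35) and Smarca1 (0.10), which drive ISWI, were not called. Smarcad1, a remodeler of another branch that helps to keep heterochromatin through replication, was the exception. It read 44.4 and 37.3 with cordycepin, against 348 and 237 in control (-2.82, adjusted p = 2.1e-10), a clear gap between groups. Smarcal1, which anneals DNA strands at stalled forks, had -0.17. Of the core subunits, Smarcd1 read 27.8 and 29.1 with cordycepin, against 88.1 and 61.3 in control (-1.37, adjusted p = 0.0073). Its paralog Smarcd2 read 8506 and 7515 with cordycepin, against 9870 and 7249 in control (-0.08, adjusted p = 1), and the groups overlapped. Smarcd3 (0.25), Smarcb1 (-0.21), Smarcc2 (-0.22), Smarce1 (-0.56) and Smarcc1 (-0.64) were not called.

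Prmt6, which methylates arginines of histone H3, was the only arginine methyltransferase called under the deposited scaling. It read 43.3 and 40.9 with cordycepin, against 321 and 228 in control (-2.68, adjusted p = 1.7e-09). Prmt1, the main enzyme for asymmetric arginine methylation, had -0.19, Prmt5, the main one for symmetric methylation, had -0.09, and Prmt3, Prmt2 and Prmt10 (now Prmt9) had -0.08, -0.27 and -0.74. Prmt7 and Prmt8 were detected on no array.

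Of the DNA methylation enzymes, the oxidases Tet2 and Tet3 were lower. Tet2 read 56.7 and 51.8 with cordycepin, against 326 and 230 in control (-2.34, adjusted p = 2.5e-07), and Tet3 read 45.6 and 49.1, against 191 and 129 (-1.73, adjusted p = 0.00030). Tet1 was detected on no array. The methyltransferases were not called: Dnmt1, which copies methylation after replication, had -0.06, Dnmt3a, which sets it anew, had -0.62, Dnmt3b had -0.95 (adjusted p = 0.11) and their partner Dnmt3l, which has no activity of its own, had -0.09. The groups of Dnmt3a and Dnmt3b did not overlap, and those of Dnmt1 and Dnmt3l did.

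A lower member was next set against a relative on the same array, since a constant that scales an array cancels in the difference. The 13 pairs were chosen after their values were seen and are a description. Relative to Setd3, the log2 change of Setd5 was -3.46, and that of Chd1 relative to Chd4 was -2.70. For Sirt1 relative to Sirt2 no size is given, since Sirt1 was not detected with cordycepin. The log2 change of Brd2 relative to Brd9 was -2.02, of Hdac4 relative to Hdac5 -1.32, of Smarcd1 relative to Smarcd2 -1.29, and of Tet2 relative to Dnmt3a -1.72. Each pair set a member called lower beside one that was not called, so a difference below 0 in all 13 pairs followed from the choice. The smallest was that of Kat5 relative to Kat2a (-0.73). In each pair the values of the 2 cordycepin arrays lay below those of the 2 control arrays. For the pair of Brd2 and Brd9 the log2 difference within an array was 1.88 and 1.75 with cordycepin, against 3.84 and 3.83 in control. The exact two-sided permutation test gave p = 0.333 for each, the smallest that 2 arrays against 2 allow. These values describe the size of the unequal change within the chosen pairs, and do not show that either gene stayed the same.

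Of the 94 members, 17 had more than 1 probe, and these did not always read alike. In 4 genes each probe was lower: Brd1 (-2.21 and -1.95), Chd1 (-2.82 for the brightest), Kdm2b (-1.15 and -1.46) and Setd1a (-1.45 and -1.69). The second probe of Chd1 was detected on no cordycepin array and was at least 3.89-fold lower. In 6 genes the probes were called differently. For Chd2, related to Chd1, the brightest probe read 136 and 145 with cordycepin, against 248 and 178 in control, and was not called (-0.59), but another was detected on neither cordycepin array, at 12.2 and 10.0, and on both control arrays, at 117 and 59.5, at least 3.69-fold lower (adjusted p = 4.4e-11). For Tet3 a second probe, detected on all arrays, gave 0.19, against -1.73 for the brightest. With cordycepin the second probe of Tet3 was the brighter of these 2, with a mean of 52.5 against 47.3. In control it was the dimmer, with 46.3 against 160, so the call of Tet3 rests on the choice of probe. The other probe of Sin3b gave -0.93 and was not called. Kdm4a had a probe at -2.18, which was lower, and one at -0.37, which was not called and was detected on no cordycepin array. The 2 dimmer probes of Mll2 gave -0.75 and -0.30, neither called. The first of these was detected on no cordycepin array and the second on no array, so their sizes are uncertain. Which transcripts each probe reads was not analysed here. In the other 7 genes no probe was called.

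**Figure D3:**
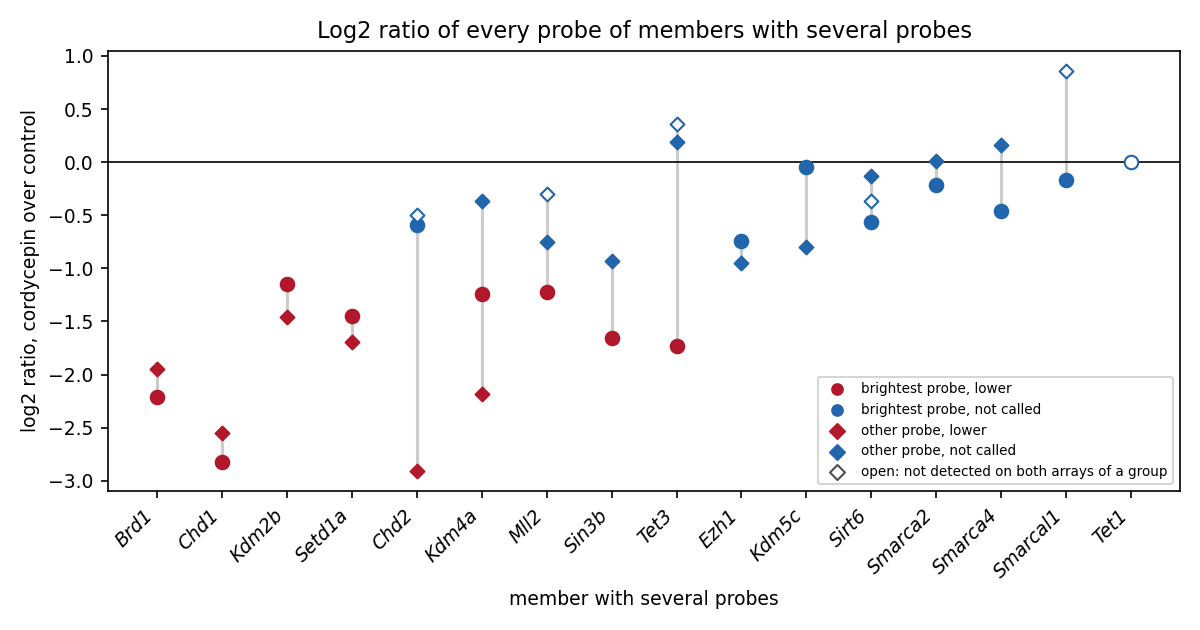
Log2 ratio of cordycepin over control (y axis) for every tested probe of 16 of the 17 members with several probes on the array. Circles are the brightest probe of a gene and diamonds the others, red is lower at an adjusted p under 0.05, blue is not called, and open symbols were not detected on both arrays of a group. The probes of Chd2, Kdm4a and Tet3 lie far apart, and those of Brd1, Chd1, Kdm2b and Setd1a lie together.

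The calls depend on how the arrays are scaled, since the direction of genes near the median is set by that choice. With quantile-normalized raw intensities 34 members were lower and 20 were higher, with arrays centred on their medians 41 and 6, and with arrays centred on the ribosomal protein genes 70 and 1. The share of all genes called lower was 17.2%, 19.8% and 46.3% under these scalings, and the share called higher was 22.3%, 19.9% and 1.23%. The median of the members was -0.20, -0.25 and -0.90, beside 0.12, 0.21 and -0.44 for all genes, so that the members' median lay below that of all genes under each. Of the 36 lower genes, 32 were lower under all of these scalings and under limma with an intensity trend, and Hdac10, Kdm2b, Kdm4c and Setd4 were not called with quantile normalization. The share of all genes that kept a lower call in this way is not given here, so the 32 cannot be read against a background. Brd8 was called higher under the 3 other scalings. The values near 0 carry no settled direction. Brd9, Hdac6, Hdac11, Sirt2 and Smarca1 were called higher with quantile normalization and with median centring. Below 0 under the deposited scaling but called higher with quantile normalization were Chd4, Hdac5, Hdac8, Kdm1b, Kdm5c, Prmt2, Prmt5, Sirt3, Sirt5, Smarcc2 and Dnmt3l. All of these but Dnmt3l, 10 members, were called lower with ribosomal centring, the opposite direction.

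Leaving out an array moved the number of lower members to 14 without cordycepin array 1, 13 without cordycepin array 2, 36 without control array 1 and 48 without control array 2. The share of all genes called lower moved with it, to 7.84%, 7.31%, 15.3% and 29.8% in the same order of arrays. With 1 cordycepin array the spread comes from the control arrays alone, and the lone array is assumed to vary like them. With 1 control array it comes from the cordycepin arrays, which lay close together, and the smallest fall called was 0.69 without control array 1 and 0.65 without control array 2. Over 12 settings, the deposited scaling included and the t-test left out, 13 of the 36 genes were lower each time: Brd1, Brd2, Chd1, Chd9, Kdm2a, Kdm3a, Kdm6a, Mll1, Prmt6, Setd5, Sirt1, Smarcad1 and Tet2. The share of all genes lower in every setting is not given here, so this count cannot be read against a background. The settings draw on the same 4 arrays and are not independent. The log2 ratio of Setd5 ran from -3.66 to -2.68 over these settings. That of Brd2 ran from -2.31 to -1.67 and that of Kdm2a from -2.27 to -1.17. Of the 36, 35 stayed below 0 in all 12, and Kdm5a, detected on no array, did not.

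**Figure D4:**
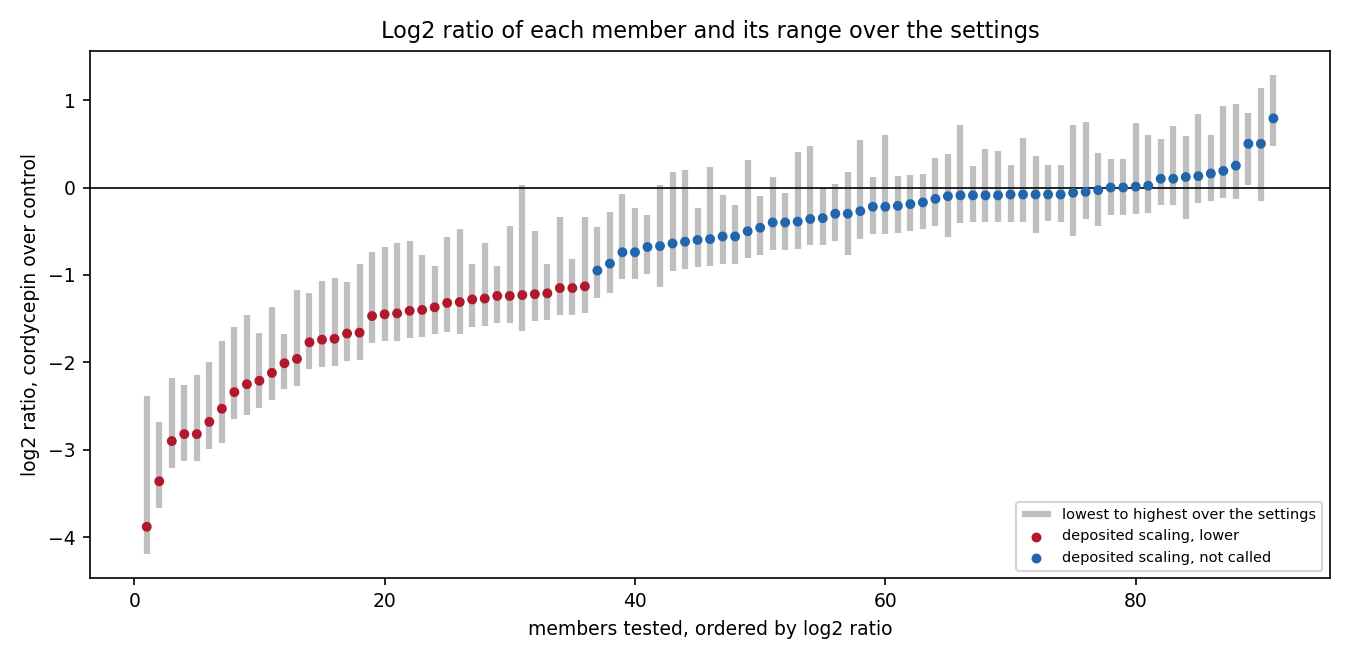
Log2 ratio of each of the 91 members tested (y axis), ordered from the lowest to the highest under the deposited scaling (x axis, rank). Points are the deposited scaling, red for lower and blue for not called, and grey bars run from the lowest to the highest value over 12 settings of scaling, filter, fit and arrays left out. The bars of the lower members other than Kdm5a lie below 0, while many of the others cross it.

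Other chromatin genes that the symbols did not take were counted in the same way. Of 209 listed, 195 were on the array, 188 were tested, 69 were lower (36.7%, against 14.7% of all genes) and 0 were higher (0.942% of all genes), with a median log2 ratio of -0.68, against -0.13 for all genes. Of the acetyltransferases and their partners 17 of 30 were lower, among them Ep300, a general coactivator, which read 66.7 and 70.0 with cordycepin, against 562 and 374 in control (-2.75, adjusted p = 6.5e-10). Epc1 (-3.82), a subunit of the Kat5 complex, and Msl2 (-3.06) were lower as well. Epc1 was detected on 1 cordycepin array. Its values there, 23.3 and 23.6, lay near the lowest detected intensities of those arrays, 24.4 and 20.9, so the size of its fall is uncertain. Of the polycomb partners 13 of 30 were lower. Cbx2, a reader of the polycomb mark, was detected on neither cordycepin array, at 17.8 and 15.5, and on both control arrays, at 333 and 238, at least 12.5-fold lower (adjusted p = 3.1e-21). Of the partners of Ezh2, Suz12 (-0.40) and Eed (-0.72) were not called, as Ezh2 was not. Its partners Mtf2 (-2.42), Jarid2 (-1.96) and Phf19 (-1.18) were lower. Phf1 (-0.54), Aebp2 (-0.56), Rbbp4 (0.07) and Rbbp7 (-0.09) were not called.

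The other SWI/SNF subunits were lower in 4 of 16, one of them Arid1a, the large subunit that is often mutated in cancer. Arid1a read 101 and 99.1 with cordycepin, against 768 and 572 in control (-2.73, adjusted p = 8.8e-10), and was detected on 1 cordycepin array. Of the other remodelers 8 of 20 were lower, with the ATPase Ino80 at -2.31 and its subunit Actr5 at -2.89, while the helicases Ruvbl1 (-0.06) and Ruvbl2 (-0.25), which the same complex holds, were not called. Of the other histone methyltransferases and the COMPASS core, 12 of 29 were lower, among them Ash1l (-2.80) and Suv420h1 (-3.01). The corepressors of the NuRD, CoREST and NCoR complexes were lower in 4 of 25, close to the share of all genes, with Mta1 (-0.07), Rcor1 (-0.06) and Ncor1 (-0.45) not called. Of the other JmjC proteins 4 of 12, of the heterochromatin proteins and readers 5 of 15, and of the DNA methylation readers 2 of 11 (18.2%) were lower.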

How the data were processed

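The deposited raw intensities had a background already subtracted, and the normalized intensities, per the deposited tables, were the raw ones times 1 constant per array (1.11 and 0.909 with cordycepin, 1.14 and 0.888 in control). The method is not given in the sources used here. Each probe had a detection p-value per array from the authors, and counted as detected under 0.05. The authors also gave spots a score whose meaning is not stated, which was not used. The authors' ratios and comparison p-values were not used. The log2 of normalized intensity was compared in R 4.3.3 with default lmFit and eBayes of limma 3.58.1 over 24319 of 26423 probes with a value above 0 on all 4 arrays. The other 2104 were left out. P-values were adjusted over all probes tested by the Benjamini-Hochberg method. The fit was also run on simulated data with independent noise. Those data held no shift of a whole array, so they do not check the gap between the control arrays. Where no array of a group detected a probe, each of its arrays was floored at its dimmest detected probe (from 19.5 to 25.2) and the fold is a lower bound. The precision is limited by 4 arrays.

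The members, role classes, marker lists and other chromatin genes were chosen with earlier results of these data known. Named were, per role, up to 4 detected lower genes with the largest change, the gene closest to the median of all genes, uncalled paralogs, genes detected on no array and genes whose probes were called differently. Members outside these rules are given by value only, and 1 lower member is counted but not reported here by name. Symbols are those of the array, and 6 were renamed through their Entrez identifiers. Promoters were matched by symbol, for 78 of 91 members tested. Alternatives were 3 other scalings, detected probes only, a floor, an intensity trend, the methods' t-test and each array left out. A further one read each gene by its probe with the lowest summed detection p, which can be the brightest one.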

Additional observations from a re-analysis of the deposited data

How the results depend on the processing

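Of 38 genes named by rule, 38 kept their side of the threshold with detected probes only, the floor and the intensity trend. The same 38 did with each gene read by its probe with the lowest summed detection p. That choice kept the brightest probe for Tet3 and Sin3b, whose other detected probes were not called (0.19 and -0.93). The number was 37 with median centring, 31 with ribosomal centring, 29 with quantile normalization and 10 with the t-test. These 38 are the largest falls per role and the genes closest to the median of all genes. None of their lower genes changed sign, but Kdm5a, called lower and not among the 38, reached 0.03 over the settings. Of the 38, genes not called changed sign in 7 cases with quantile normalization, 7 with median centring, 2 with ribosomal centring, 6 and 2 without control arrays 1 and 2, and 1 and 3 without cordycepin arrays 1 and 2. Values near 0 therefore have no settled direction. Among the 38, quantile normalization turned 5 genes that were below 0 and not called into higher calls. Their log2 ratios were 0.75 (Kdm5c), 0.44 (Sirt3), 0.34 (Chd4), 0.24 (Prmt5) and 0.72 (Dnmt3l). The members called higher numbered 20 with quantile normalization, 6 with median centring, 1 with ribosomal centring and 1 with the floor, beside 0 under the deposited scaling, and the median of the members was -0.20, -0.25 and -0.90 under the first 3 of these. Ribosomal centring gave 70 members and 151 other chromatin genes lower, beside 36 and 69. The other chromatin genes called higher were 32 with quantile normalization and 15 with median centring, beside 0. The methods' t-test, which has 2 residual degrees of freedom per gene, called 0 members and 0 other chromatin genes after adjustment. With 1 array left out in turn, the lower members ranged from 13 to 48, the higher from 0 to 1, the members' median from -0.80 to -0.33, and the other chromatin genes from 32 to 119 lower and 0 to 1 higher. The counts of lower genes were smallest without cordycepin array 2 and largest without control array 2. The cause of these shifts was not tested, except that a single array of a group leaves the other group as the only source of spread, which moved the smallest fall called to 1.78 and 1.79 with 1 cordycepin array and to 0.69 and 0.65 with 1 control array. No paired analysis was possible because the labels give the arrays no replicate number shared between the groups. Dim probes limit the lower end: 13 members were detected on no array.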
